A study of Mus musculus with 32 samples.

Results

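Connexins, pannexins, P2X receptors and TRPV2 form pores in the cell membrane that pass ions or small molecules. RNA levels of 9 of their genes were followed in mouse gastrocnemius (GAS) muscle after its nerve was cut: the connexin genes Gja1, Gja4, Gja5 and Gjc1, the pannexin gene Panx1, the ATP receptor genes P2rx4, P2rx5 and P2rx7, and the cation channel gene Trpv2. They were chosen by name, as non-selective channels and receptors for extracellular ATP, with earlier results of these data known. Each was among the 33397 genes of the deposited table. All 9 passed the filter on low values, which kept 22071 genes.

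RNA was sequenced from GAS muscle, the large calf muscle served by the sciatic nerve, in 32 samples, 4 for each of 0, 1, 3, 5, 7, 14, 21 and 28 d. The animals were C57BL/6 mice (C57BL/6J in the study's methods) without an engineered allele, males of 6 to 8 weeks per those methods, and the denervated groups had a stretch of the left sciatic nerve removed. The labels list the nerve transection for the 0 d samples too, whereas the study's methods speak of a sham group, so 0 d is taken here as the control group with that point unresolved. The study describes the samples of its sequencing as biologically independent, while the labels and column names tie no sample to an animal, so the p-values measure the spread between these samples.

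Connexins assemble into rings of subunits called hemichannels, which can open to the outside of a cell or dock with a partner cell to form a gap junction. Pannexin 1 forms related channels that release ATP, and P2X receptors are cation channels that open when extracellular ATP binds. Healthy adult muscle fibres are known to hold few connexins, while fibres that have lost their nerve are known to insert hemichannels, pannexin 1, P2X7 and TRPV2 into their surface membrane. Gap junctions of Cx37 (Gja4), Cx40 (Gja5), Cx43 (Gja1) and Cx45 (Gjc1) are otherwise best known from blood vessels, in endothelium and smooth muscle.

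The stretches before the start sites of Panx1, P2rx4 and P2rx7 are shown because these genes differed most in size or kept company with each other in the values that follow. Each is the 250 bases upstream of a RefSeq start on build GRCm38.p6, 5′ to 3′ on the strand of the gene, and capitals mark every match, on either strand, to the E-box CANNTG bound by MyoD-type factors, the AP-1 motif TGANTCA or the Runx motif TGTGGT. The Panx1 stretch is chr9:15045479-15045728 (minus strand), the P2rx4 stretch is chr5:122707294-122707543 (plus strand), and the P2rx7 stretch, from the first of 2 RefSeq starts, is chr5:122643677-122643926 (plus strand).
Panx1: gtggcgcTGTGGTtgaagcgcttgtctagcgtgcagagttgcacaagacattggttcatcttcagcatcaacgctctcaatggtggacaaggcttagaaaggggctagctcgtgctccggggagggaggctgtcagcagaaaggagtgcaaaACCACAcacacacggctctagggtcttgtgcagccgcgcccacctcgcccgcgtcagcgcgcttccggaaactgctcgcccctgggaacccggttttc
P2rx4: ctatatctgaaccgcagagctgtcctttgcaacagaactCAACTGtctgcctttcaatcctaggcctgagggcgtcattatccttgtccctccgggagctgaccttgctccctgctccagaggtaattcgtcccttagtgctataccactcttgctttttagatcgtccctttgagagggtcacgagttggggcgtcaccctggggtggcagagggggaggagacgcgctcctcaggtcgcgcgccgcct
P2rx7: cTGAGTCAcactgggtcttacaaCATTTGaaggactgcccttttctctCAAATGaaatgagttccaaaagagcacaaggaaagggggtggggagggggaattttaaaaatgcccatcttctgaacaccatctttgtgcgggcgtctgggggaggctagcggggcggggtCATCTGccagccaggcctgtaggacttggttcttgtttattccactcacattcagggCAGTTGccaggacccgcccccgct

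The Panx1 stretch held 2 Runx matches, which began at -243 and -98 counted back from the start, and 0 E-box matches. The P2rx4 stretch held 1 E-box, at -211. The P2rx7 stretch held 4 E-boxes, at -227, -202, -81 and -24 and 1 AP-1 match near the far end of the window, while its second start had 2 E-boxes. Over 32851 promoters of the same length, an E-box occurred in 66.2%, an AP-1 match in 6.75% and a Runx match in 14%, so these letters are a description of the windows and mark no bound site. RefSeq entries were matched for 7 of the 9 genes, without Gjc1 and P2rx5.

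The deposited values are FPKM, the fragments of a gene divided by the length of its exons and by the total of the sample, so levels can be compared between genes. Turned back into fragments with the exon lengths of GENCODE mouse release 21, the samples held 14199909 to 17561589 fragments each. Differences were tested with limma on log2(FPKM + 1), a scale that understates the change of genes with low FPKM, and a gene was called at a Benjamini-Hochberg adjusted p under 0.05 over the 22071 genes. FPKM divides by a total in which the most abundant muscle RNAs weigh heavily, and the median gene with a mean FPKM of at least 1 moved by 0.12 on the log2 scale at 1 d and by 0.20 to 0.32 from 3 to 28 d. Values after median-ratio scaling, which brings that median close to 0, are therefore given beside the deposited scale. The summed FPKM of 8 muscle fibre markers was 22148 to 44945 per sample, and 7 of 7 known denervation response genes were higher from 3 d on. The labels' extraction text names retina, but 7 retina markers together reached at most 0.285 FPKM and none passed the filter. The 3 d replicate a stood apart from the other 3 d samples on the first principal component (-19.4 against 0.752 to 6.25), and values without it are given where they matter.

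In the 0 d muscle the order of the levels was P2rx5 (6.03 ± 0.710 FPKM, SD, n = 4), Gja4 (4.10 ± 0.340), Gja1 (3.25 ± 0.194), Gjc1 (1.49 ± 0.0488), Gja5 (1.32 ± 0.126), P2rx4 (1.31 ± 0.182), P2rx7 (1.28 ± 0.264), Panx1 (1.23 ± 0.118) and Trpv2 (0.598 ± 0.0878). The ranges of Gja5, P2rx4, P2rx7 and Panx1 overlapped with their neighbours in this order, and those of the other genes did not overlap with the next gene. At 3 d Panx1 was first at 16.5 ± 2.75 FPKM, with a range that overlapped that of P2rx5 (11.8 ± 1.33). At 28 d P2rx5 was again first at 13.5 ± 1.81 FPKM, with Panx1 next at 4.74 ± 0.470 and Gja5 last at 0.838 ± 0.249.

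**Figure D1:**
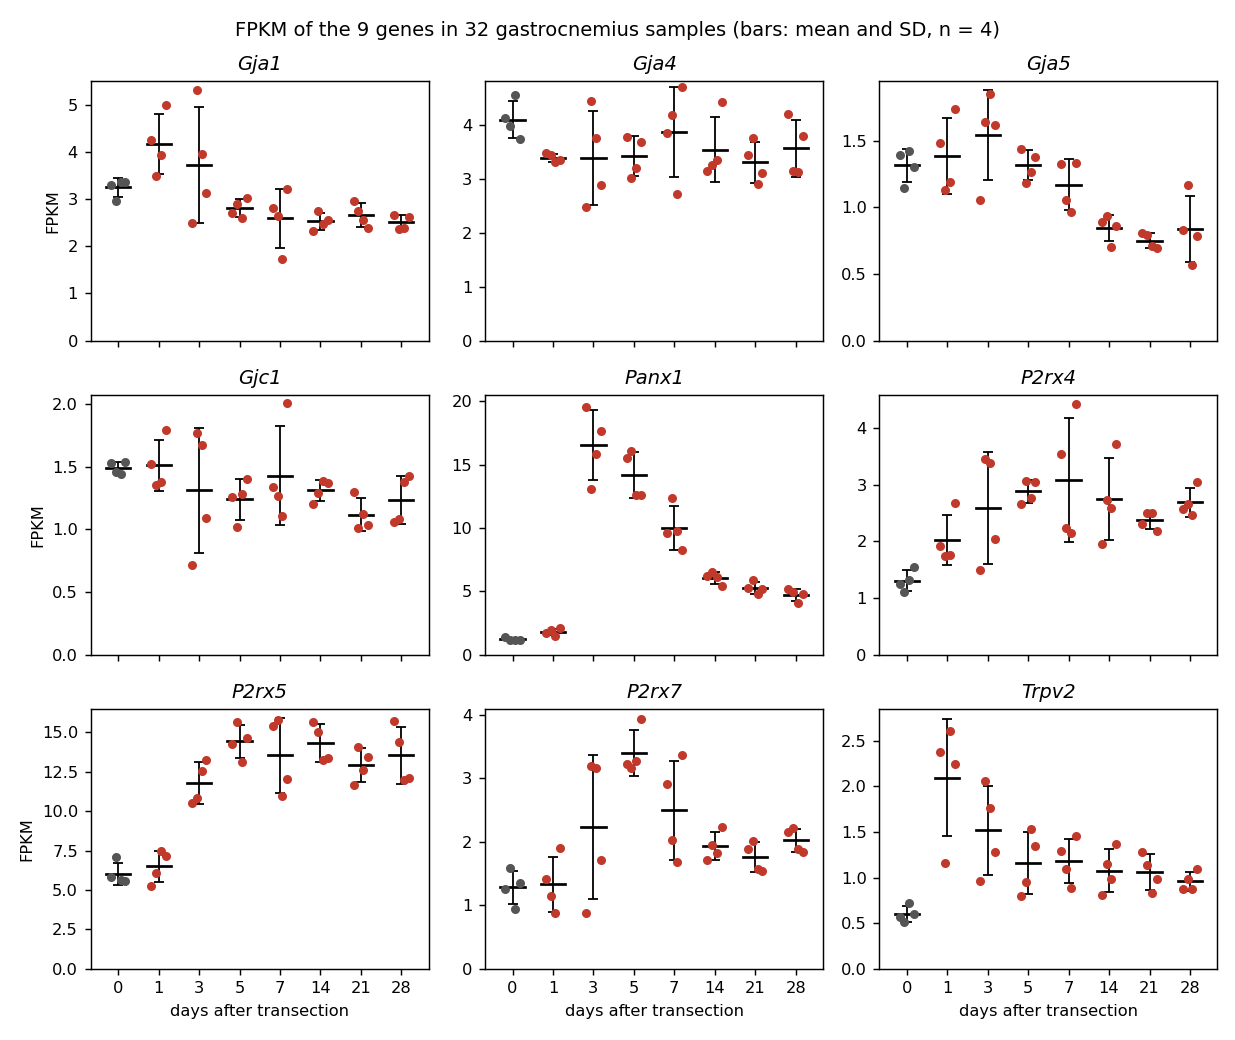
FPKM (vertical axes, from 0, each gene on its own scale) of the 9 genes by days after transection (horizontal axes). Points are samples, grey at 0 d and red after transection, and black bars give the mean and SD of 4 samples. Panx1 stood at 1.13 to 1.40 FPKM at 0 d and 13.1 to 19.6 FPKM at 3 d, P2rx5 shifted to a plateau, Trpv2 was highest at 1 d, and the 4 connexin genes stayed within 0.568 to 5.32 FPKM.

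Over the whole course, 7 of the 9 genes were called by the moderated F-test of limma across the 7 differences from 0 d, in a table where 63.2% of all genes were called; Gja4 (adjusted p = 0.556) and Gjc1 (adjusted p = 0.438) were not. After median-ratio scaling all 9 had an adjusted p under 0.05, from 8.35e-17 for Panx1 to 0.0262 for P2rx4, beside 61.8% of all genes called on that scale. Against 0 d, 2 genes were called at 1 d (Panx1 and Trpv2, both higher), where 20.4% of all genes were called higher and 9.01% lower, and 4 at 3 d (Panx1, P2rx4, P2rx5 and Trpv2, all higher), where 29% and 14.3% were. At 5 d and at 7 d the same 5 genes were called higher (Panx1, P2rx4, P2rx5, P2rx7 and Trpv2), beside 36.1% of all genes higher and 9.52% lower at 5 d and 37.1% and 10.1% at 7 d. At 14 d and at 21 d Panx1, P2rx4, P2rx5 and Trpv2 were higher and Gja5 lower, beside 38% higher and 9.25% lower at 14 d and 31.7% and 10.1% at 21 d. At 28 d Panx1, P2rx4 and P2rx5 were higher and Gja5 lower, beside 37.8% and 9.85%. With 9 genes these counts lie near or not far above the background, and at 28 d below it for higher calls (3 of 9 against 37.8%), so the results are those of the single genes. All 4 samples of a time point lay above every 0 d sample for 3 to 5 of the 9 genes at each time point, and for 19.9%, 23%, 35.9%, 32.4%, 36.8%, 32.9% and 36.6% of all genes over the 7 time points in order. They lay below for 1 to 3 of the 9 at 1, 5, 14, 21 and 28 d, beside 8.6%, 8.93%, 8.13%, 9.99% and 9.06% of all genes. The median difference of the 9 was 0.43 on the log2 scale at 3 d and 0.29 at 28 d, beside 0.06 and 0.14 over all genes tested and 0.20 and 0.30 over those with a mean FPKM of at least 1, so at 28 d it was no higher than in genes of such levels. After median-ratio scaling the median of the 9 was 0.26 and 0.14.

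**Figure D2:**
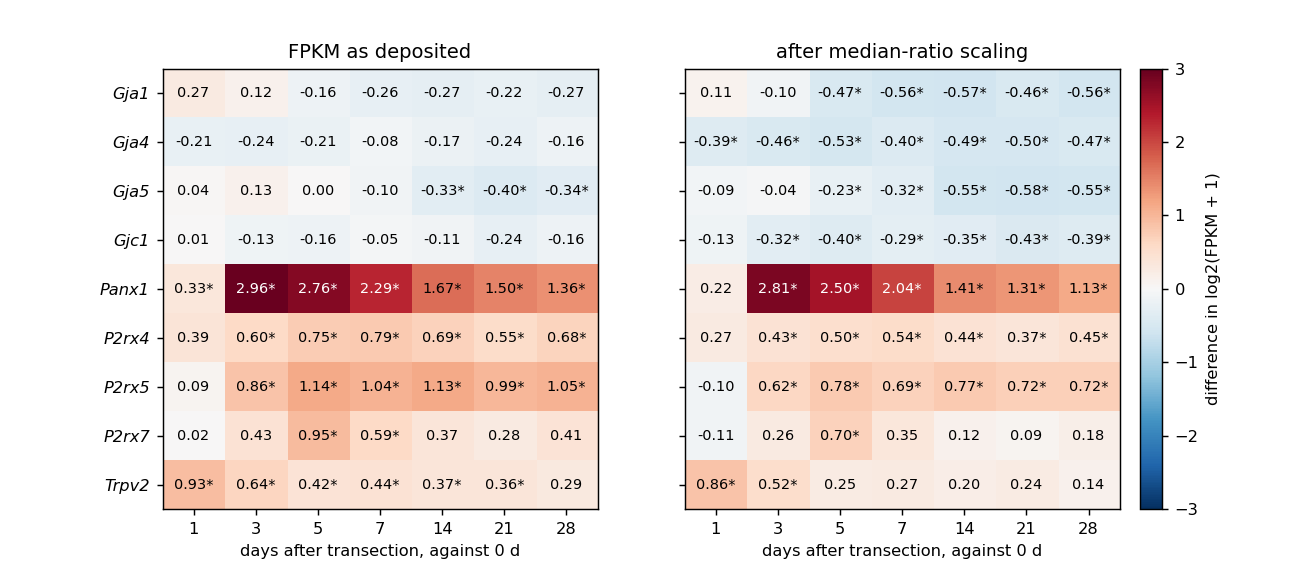
Difference from 0 d in log2(FPKM + 1) for each gene (rows) and day (columns), on the deposited scale (left) and after median-ratio scaling (right). Red is higher and blue lower than 0 d, and an asterisk marks an adjusted p under 0.05 in limma. Panx1, P2rx4 and P2rx5 kept their calls from 3 to 28 d on both scales, whereas Gja1, Gja4 and Gjc1 had calls, all lower, only on the right, P2rx7 kept a call only at 5 d and Trpv2 only at 1 and 3 d.

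After median-ratio scaling, 1 of the 9 genes was called higher at 1 d, 4 at 3 and 5 d and 3 from 7 to 28 d, beside 13.6%, 20.5%, 18.8%, 20%, 19.3%, 18.6% and 20.5% of all genes over the 7 time points in order. Lower were 1 at 1 d, 2 at 3 d and all 4 connexin genes from 5 to 28 d, beside 18.7%, 23.9%, 20.6%, 20.7%, 19.7%, 19.8% and 19.9%. The deposited scale and this one therefore differed most for the connexins.

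Panx1 showed the largest change of the 9 at every time point from 3 d on. The 0 d samples held 1.40, 1.13, 1.18 and 1.19 FPKM, the 1 d samples 1.69, 1.96, 1.503 and 2.08, the 3 d samples 19.6, 13.1, 15.8 and 17.6, and the 5 d samples 15.5, 16.04, 12.6 and 12.6. Later it held 9.63, 12.4, 9.76 and 8.24 FPKM at 7 d, 6.19, 6.54, 6.16 and 5.44 at 14 d, 5.25, 5.93, 4.76 and 5.22 at 21 d, and 5.19, 4.92, 4.08 and 4.77 at 28 d. Every denervated sample lay above every 0 d sample. The mean at 3 d was 13.5 times that at 0 d (log2 difference 2.96, SE 0.11, adjusted p = 9.48e-19), which ranked 53 among the higher differences of the 22071 genes. It was 11.6 times at 5 d, 8.16 times at 7 d, 4.96 times at 14 d, 4.31 times at 21 d and 3.86 times at 28 d (log2 difference 1.36, SE 0.11, adjusted p = 2e-11).

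The steps between time points separated the rise of Panx1 from its return. Between 1 and 3 d it rose by a log2 difference of 2.63 (SE 0.11, adjusted p = 8.84e-17), in a step in which 30.9% of all genes were called. It then fell by 0.47 from 5 to 7 d (adjusted p = 0.0169), by 0.63 from 7 to 14 d (adjusted p = 0.00071) and by 0.93 from 7 to 28 d (adjusted p = 4.35e-07), beside 1.96%, 2.54% and 13.1% of all genes called in these steps. The step from 5 to 7 d lost its call after median-ratio scaling (adjusted p = 0.0683) and without 5 d replicate a, 5 d replicate b or 7 d replicate d. From 14 to 21 d and from 21 to 28 d limma called 0 of the 9 genes, beside 1.61% and 0.476% of all genes, with 0 at an unadjusted p under 0.05 and 0 by limma-voom on the recovered fragments.

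The early difference of Panx1 at 1 d was small. Its ratio of means was 1.47 (log2 difference 0.33, SE 0.11, adjusted p = 0.0192), with all 4 samples above the 0 d range. This call was lost after median-ratio scaling (log2 difference 0.22, adjusted p = 0.222) and without 0 d replicate 2, 1 d replicate b or 1 d replicate d (adjusted p up to 0.0727). The other pannexin genes, Panx2 and Panx3, were too low to be tested, with at most 0.163 FPKM in any sample.

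P2rx5, known from differentiating muscle cells, changed to a new level and held it. Its mean was the highest of the P2X receptor genes at every time point, although at 0 and 1 d its range overlapped with that of P2rx6. Its FPKM was 5.85, 7.08, 5.61 and 5.58 at 0 d, 5.26, 6.08, 7.46 and 7.16 at 1 d, 10.5, 10.8, 12.6 and 13.3 at 3 d, and 14.3, 15.7, 13.1 and 14.7 at 5 d. It was 15.4, 15.8, 11.0 and 12.04 at 7 d, 15.7, 15.0, 13.2 and 13.4 at 14 d, 11.6, 14.1, 12.6 and 13.4 at 21 d, and 15.7, 14.4, 11.995 and 12.1 at 28 d. The 1 d samples overlapped with 0 d, and every sample from 3 d on lay above both. The ratio of means was 1.96 at 3 d (log2 difference 0.86, SE 0.11, adjusted p = 1.62e-07) and between 2.14 and 2.39 from 5 to 28 d. Of the steps, that from 1 to 3 d was called (log2 difference 0.78, SE 0.11, adjusted p = 1.91e-06). After median-ratio scaling the differences from 0 d were 0.62 at 3 d and 0.69 to 0.78 later, all with an adjusted p under 0.05.

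P2rx6, another P2X subunit gene of muscle, went the other way. It stood at 5.30 ± 0.295 FPKM at 0 d (range 5.08 to 5.72) and 6.13 ± 0.720 at 1 d, and at 2.06 ± 0.298 at 3 d (range 1.71 to 2.42). The fall at 3 d was -1.04 on the log2 scale (SE 0.11, adjusted p = 7.35e-09), and P2rx6 was called lower at every time point from 3 to 28 d on both scales. Within a sample the ratio of P2rx5 to P2rx6 was 1.14 ± 0.175 at 0 d (lowest 0.980) and 1.06 ± 0.0754 at 1 d (lowest 0.963). It was 5.77 ± 0.696 at 3 d, and it lay between 5.26 and 6.84 on average afterwards. P2rx5 made up 41.5% ± 3.38 of the summed FPKM of the 7 P2X genes at 0 d and 62.6% ± 3.80 at 28 d. P2rx3, a receptor of sensory neurons, was low throughout (0.145 ± 0.0459 FPKM at 0 d) and called higher from 5 d on, reaching 0.463 ± 0.145 at 28 d, but not at 5 and 14 d after median-ratio scaling (adjusted p = 0.0876 and 0.0511); P2rx2 was below 0.1 FPKM in every sample.

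**Figure D3:**
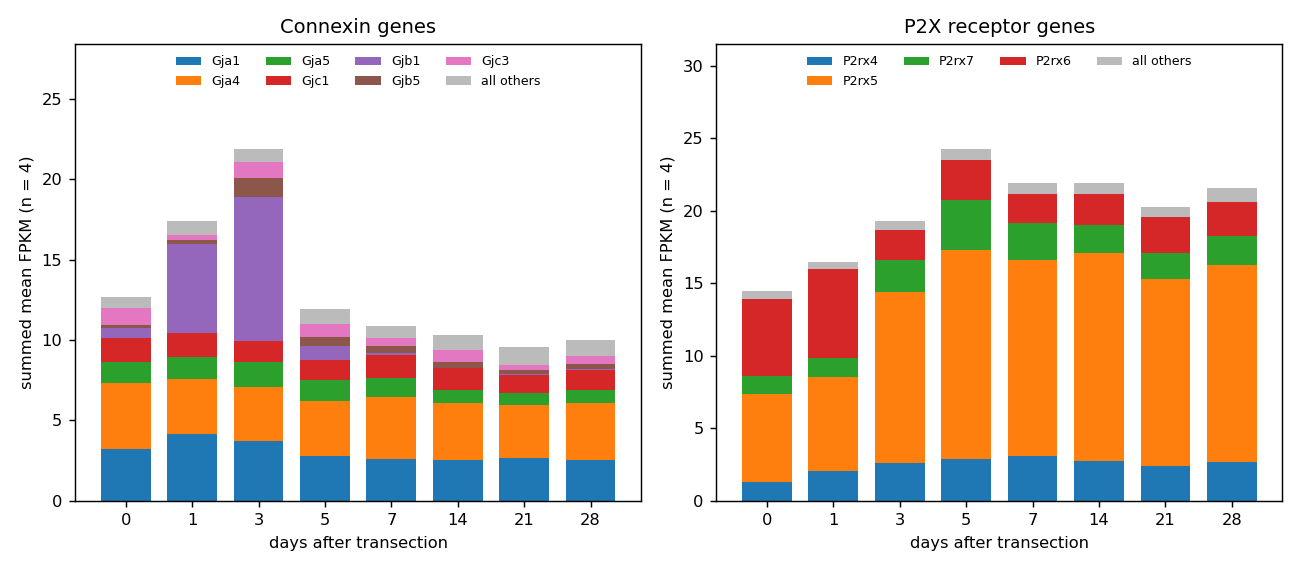
Summed mean FPKM (vertical axes, from 0) of 19 connexin genes (left) and 7 P2X receptor genes (right) at each time point, with 4 samples per bar. Colours mark genes whose mean reached 1 FPKM in some group, and grey holds the others. P2rx5 widened from 6.03 to 14.4 FPKM by 5 d while P2rx6 narrowed from 5.30 to 2.76, and Gjb1 filled 5.56 FPKM of the connexin bar at 1 d and 8.95 FPKM at 3 d, against 0.613 at 0 d.

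P2rx4, a receptor of lysosomes and the cell surface that is abundant in macrophages, was higher from 3 d on. Its FPKM was 1.25, 1.11, 1.32 and 1.54 at 0 d, 1.91, 1.75, 1.77 and 2.67 at 1 d, 1.49, 3.45, 3.38 and 2.04 at 3 d, and 2.66, 3.07, 2.76 and 3.05 at 5 d. At 7 d it was 3.54, 2.23, 2.14 and 4.42, at 14 d 1.96, 2.73, 2.59 and 3.72, at 21 d 2.31, 2.51, 2.50 and 2.19, and at 28 d 2.57, 2.67, 2.47 and 3.04. Of the denervated samples, 1 overlapped with 0 d, 3 d replicate a. The ratio of means was 1.98 at 3 d (log2 difference 0.60, SE 0.16, adjusted p = 0.00353), 2.36 at 7 d (0.79, SE 0.16, adjusted p = 0.000206) and 2.06 at 28 d (0.68, SE 0.16, adjusted p = 0.00106). Without 3 d replicate a the difference at 3 d was 0.76 (adjusted p = 0.00023). At 1 d the 4 samples lay above 0 d, as they did for 19.9% of all genes, and the difference of 0.39 was not called (adjusted p = 0.0814). From 3 to 28 d the calls stood after median-ratio scaling, at 0.37 to 0.54.

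P2rx7, the receptor that opens a large pore at high ATP and drives potassium loss ahead of inflammasome assembly in immune cells, had its highest level at 5 d. Its FPKM was 1.26, 1.58, 0.944 and 1.35 at 0 d, 1.42, 1.14, 0.884 and 1.90 at 1 d, 0.875, 3.19, 3.16 and 1.72 at 3 d, and 3.23, 3.17, 3.27 and 3.94 at 5 d. At 7 d it was 2.91, 2.02, 1.69 and 3.37, at 14 d 1.72, 1.95, 1.83 and 2.24, at 21 d 1.90, 2.02, 1.57 and 1.54, and at 28 d 2.15, 2.21, 1.88 and 1.84. The samples of 5, 7, 14 and 28 d all lay above 0 d, those of 1, 3 and 21 d overlapped with it, and the 3 d samples spread most. The ratio of means was 2.65 at 5 d (log2 difference 0.95, SE 0.18, adjusted p = 6.95e-05) and 1.94 at 7 d (0.59, SE 0.18, adjusted p = 0.00751). The differences at 14, 21 and 28 d were 0.37, 0.28 and 0.41 and were not called (adjusted p = 0.0999, 0.24 and 0.0631). On TPM, 14 and 28 d were called (0.65 and 0.68, adjusted p = 0.029 and 0.0233), and so was 3 d (0.68, adjusted p = 0.0267). A fit of only the groups compared called 14, 21 and 28 d (adjusted p = 0.0107, 0.039 and 0.00441).

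The 3 d value of P2rx7 moved most with a single sample. With all samples the difference was 0.43 (SE 0.18, adjusted p = 0.0533), and without 3 d replicate a it was 0.67 (adjusted p = 0.000694), while leaving out 1 of 5 other samples gave adjusted p from 0.0451 to 0.0475. The called step of 0.52 from 3 to 5 d (adjusted p = 0.0366, in a step with 23.8% of all genes called) became 0.28 without that sample (adjusted p = 0.241). It also lost its call without 3 d replicate d or any of the 5 d samples. After median-ratio scaling P2rx7 kept the call at 5 d (0.70, adjusted p = 0.000717) and not at 7 d (0.35, adjusted p = 0.0792). In GENCODE release 21 the gene overlaps a microRNA gene on the same strand, Mir8115, by 119 bases.

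Within the 3 d and the 7 d group, both receptors were low and high in the same samples as markers of several cell types, while across the groups they did not always move together. The summed FPKM of 10 macrophage markers was 72.0 to 103 at 0 d, 130 to 213 at 1 d, 221 to 542 at 3 d, 339 to 409 at 5 d, 229 to 509 at 7 d and 223 to 255 at 28 d, with 10 of 10 markers called higher at 3, 5 and 7 d and 0 of 10 at 0 in all samples of a group. The 3 d replicates a, b, c and d held sums of 221, 542, 489 and 318, in which replicate a had the lowest and b the highest P2rx4 and P2rx7. At 7 d replicate c was lowest (229) and d highest (509) in the sum and in both receptors. The same samples were lowest and highest in Gja1, Gja4, Gjc1 and Trpv2 at 3 d and at 7 d. Gja4, for example, held 2.48 FPKM in a and 4.43 in b at 3 d, and 2.72 in c and 4.70 in d at 7 d. This order was therefore not particular to P2rx4 and P2rx7. The sum of 7 fibroblast markers was likewise lowest in replicate a at 3 d (284 FPKM against 527 to 751), lowest in c (470) and highest in d (1015) at 7 d, and highest on average at 5 d (137% of 0 d), with 3 of 7 called higher at 5 d and 0 higher and 1 lower at 3 d (2 higher and 2 lower at 5 d after median-ratio scaling). On average it was 87.6% of 0 d at 1 d and 102% at 3 d, when P2rx4 stood at 155% and 198%. The macrophage sum was 180% of 0 d at 1 d, with P2rx7 at 104%, and within 0 d the highest P2rx7 (1.58 FPKM) was in the sample with the lowest macrophage sum. Schwann cell markers were also lowest in a at 3 d (13.3 FPKM) and ran from 10.1 in c to 51.9 in d at 7 d, and 8 endothelial markers ran from 68.1 in a to 96.4 in b at 3 d and were lowest in c at 7 d (78.4). Muscle fibre markers ran the other way at 7 d, from 31846 in c to 27357 in d. Over the 32 samples, which share these groups, the genes outside the lists with the pattern most like P2rx4 on log2(FPKM + 1) were Laptm5 (Pearson's r = 0.962), Tyrobp (0.959) and Myo1f (0.947), all known from myeloid cells, and those most like P2rx7 were Efemp2 (0.926), Hacd4 (0.925) and Grn (0.911). P2rx4 and P2rx7, which both lie on chromosome 5, had r = 0.808 with each other, the highest of the 36 pairs among the 9 genes. The part of the marker shifts in these results was not tested, and in whole muscle fewer cells of a type and less RNA per cell cannot be told apart.

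**Figure D4:**
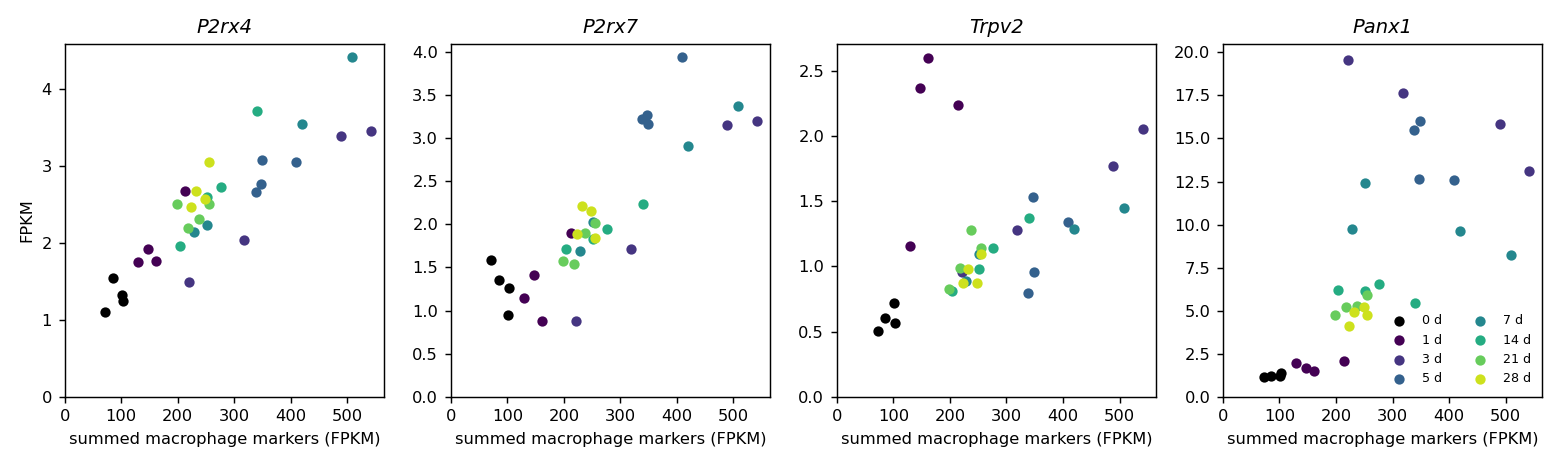
FPKM of P2rx4, P2rx7, Trpv2 and Panx1 (vertical axes, from 0) against the summed FPKM of 10 macrophage markers (horizontal axes) in 32 samples, coloured by days after transection with 0 d in black. Within 3 d and within 7 d, samples with a higher sum had more P2rx4, P2rx7 and Trpv2. Trpv2 was highest at 1 d, where the sum was 130 to 213. Panx1 was highest in the 3 d sample with the lowest sum of its group (19.6 FPKM at 221).

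Panx1 did not follow that order: at 3 d its highest value (19.6 FPKM) was in replicate a and its lowest (13.1 FPKM) in replicate b. Without replicate a its difference at 3 d was 2.88 (adjusted p = 9.63e-18). The genes most like it were Myo18b (r = 0.973), a myosin of striated muscle with 24.0 FPKM at 0 d and 96.3 at 3 d, Ran (0.966) and Abcc8 (0.965), the sulphonylurea receptor subunit of potassium channels. Those most like P2rx5 were Ift43 (0.960), Sync (0.959), which encodes an intermediate filament protein of muscle, and Tbcb (0.958). P2rx5 and Panx1 had r = 0.768 with each other. The summed FPKM of 5 satellite cell markers also moved, from 12.9 to 17.1 at 0 d to 60.7 to 94.4 at 3 d and 92.1 to 115 at 28 d, with 2 of 5 called higher at 3 d and 3 of 5 at 28 d. Most of that sum was Myod1, at 60.3 FPKM at 3 d and 94.6 at 28 d, and after median-ratio scaling 2 of 5 were higher and 2 lower at 3 d, and 2 higher and 1 lower at 28 d. Their part in both genes was not tested.

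Trpv2, a calcium-permeable channel that responds to stretch and heat, was highest first. Its FPKM was 0.564, 0.508, 0.716 and 0.604 at 0 d, 2.37, 1.16, 2.60 and 2.24 at 1 d, 0.961, 2.05, 1.77 and 1.28 at 3 d, and 0.795, 0.956, 1.54 and 1.34 at 5 d. At 7 d it was 1.29, 1.10, 0.890 and 1.45, at 14 d 0.813, 1.14, 0.982 and 1.37, at 21 d 1.28, 1.14, 0.827 and 0.986, and at 28 d 0.876, 0.982, 0.877 and 1.09. All 28 denervated samples lay above the 4 samples of 0 d, with 34 to 49 fragments behind each 0 d value. The ratio of means was 3.50 at 1 d (log2 difference 0.93, SE 0.14, adjusted p = 5.56e-06) and 2.53 at 3 d (0.64, SE 0.14, adjusted p = 0.000425), and both calls stood after median-ratio scaling (0.86 and 0.52).

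Later differences of Trpv2 were smaller, from 0.36 to 0.44 between 5 and 21 d (adjusted p = 0.0101 to 0.0389) and 0.29 at 28 d (adjusted p = 0.0889). After median-ratio scaling they were 0.14 to 0.27 and none was called, whereas the 28 d difference was called on TPM (0.56, adjusted p = 0.0282) and with only the groups compared (adjusted p = 0.00494). The 5 d call also ended without 5 d replicate c (adjusted p = 0.0679), the 14 d call without any of 5 samples of 0 or 14 d, and the 21 d call without any of 6 samples of 0 or 21 d. At 1 d replicate b held the lowest Trpv2 (1.16 FPKM) and the lowest sums of neutrophil markers (12.5 FPKM against 32.9 to 97.8 in the others and 3.42 to 3.51 at 0 d) and of macrophage markers (130), and it was also lowest in endothelial, mural cell and fibroblast markers. Replicate d, with the highest neutrophil and macrophage sums (97.8 and 213), held 2.24 FPKM of Trpv2, below replicates a and c. The part of these markers was not tested. The genes most like Trpv2 were Foxo3 (r = 0.881), Thbs1 (0.876) and Atp10a (0.874), each with its highest mean at 1 d.

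Of the 4 connexin genes, Gja5 was the one called at single time points against 0 d on the deposited scale. Cx40, its product, is the connexin of arterial endothelium. Its FPKM was 1.39, 1.14, 1.43 and 1.305 at 0 d, 1.48, 1.13, 1.19 and 1.74 at 1 d, 1.06, 1.64, 1.85 and 1.62 at 3 d, 1.44, 1.18, 1.27 and 1.37 at 5 d, and 1.33, 1.06, 0.964 and 1.33 at 7 d. It was 0.892, 0.932, 0.705 and 0.859 at 14 d, 0.810, 0.793, 0.708 and 0.694 at 21 d, and 0.8292, 1.17, 0.568 and 0.784 at 28 d. The samples of 14 and 21 d lay below every 0 d sample, while 28 d replicate b fell within the 0 d range. Gja5 fell by 0.33 at 14 d (SE 0.10, adjusted p = 0.00641), by 0.40 at 21 d (SE 0.10, adjusted p = 0.00117) and by 0.34 at 28 d (SE 0.10, adjusted p = 0.0044), with means at 64.4%, 57.1% and 63.7% of 0 d.

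After median-ratio scaling the fall of Gja5 was 0.55 to 0.58 at these days, and 5 and 7 d were called lower too (-0.23 and -0.32). On TPM the calls at 14 and 28 d were lost (adjusted p = 0.0948 and 0.051). Without 3 d replicate a, Gja5 was called higher at 3 d (0.22, adjusted p = 0.0491). The summed FPKM of 5 arterial endothelial markers was 84.5% of 0 d at 21 d and 79.3% at 28 d, with 1 of 5 called lower at each, and that of 8 endothelial markers 72.8% at both, with 7 and 6 of 8 called lower. After median-ratio scaling 4 of 5 arterial markers were lower at 21 d and 5 of 5 at 28 d, and 7 of 8 endothelial markers at both. At 3 d these sums stood at 72.4% and 71.2% of 0 d, while Gja5 was at its highest mean, 117% of 0 d. Their part in the fall of Gja5 was not tested. Gja5 overlaps 165 exon bases of Gpr89, which lies on the opposite strand with a mean of 3.72 FPKM, and since no source used here says whether fragments were counted by strand, reads in those bases cannot be assigned to one gene. The genes most like Gja5 were Mapk14 (r = 0.834), Slc8a1 (0.826) and Ano6 (0.823).

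Gja1, whose product Cx43 is the most widespread connexin, was called over the time course (F-test, adjusted p = 0.00142) and at no single time point against 0 d on the deposited scale with all samples. Its FPKM was 3.30, 2.96, 3.36 and 3.37 at 0 d, 4.24, 3.48, 3.94 and 4.98 at 1 d, 2.49, 5.32, 3.95 and 3.13 at 3 d, and 2.71, 2.90, 2.60 and 3.03 at 5 d. At 7 d it was 2.80, 2.63, 1.73 and 3.22, at 14 d 2.33, 2.75, 2.48 and 2.56, at 21 d 2.96, 2.74, 2.55 and 2.39, and at 28 d 2.67, 2.37, 2.39 and 2.61. All samples of 1 d lay above 0 d, and all of 14 and of 28 d below it. The difference was 0.27 at 1 d (SE 0.13, adjusted p = 0.111), -0.27 at 14 d (adjusted p = 0.0855) and -0.27 at 28 d (adjusted p = 0.0759). After median-ratio scaling Gja1 was lower from 5 to 28 d, by 0.46 to 0.57 with adjusted p from 2.53e-05 to 0.000417. The genes most like it were Klf2 (r = 0.875), Sema3g (0.866) and Rhoj (0.856), all known from endothelium.

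Gja4, the gene of the endothelial connexin Cx37, and Gjc1, that of Cx45, had no call on the deposited scale with all samples, neither over the time course nor at a time point. Gja4 held 3.74 to 4.55 FPKM at 0 d, 3.31 to 3.47 at 1 d, 2.48 to 4.43 at 3 d, 2.72 to 4.70 at 7 d and 3.12 to 4.21 at 28 d, and its differences ran from -0.24 to -0.082 (adjusted p = 0.116 to 0.621). Its 1 d samples all lay below 0 d, as did those of 8.6% of all genes. Gjc1 held 1.44 to 1.54 FPKM at 0 d, 1.35 to 1.79 at 1 d, 0.718 to 1.77 at 3 d, 1.11 to 2.01 at 7 d and 1.06 to 1.43 at 28 d, with differences from -0.24 to 0.0073 (adjusted p = 0.0964 to 1). Its samples of 5, 14, 21 and 28 d lay below 0 d without overlap. After median-ratio scaling Gja4 was called lower at all 7 time points (-0.53 to -0.39) and Gjc1 from 3 to 28 d (-0.43 to -0.29), so that for these genes and for Gja1 the call depended on the scale. It also depended on the samples fitted, since with only the groups compared Gja4 was lower at 1, 5 and 21 d (adjusted p = 0.0421, 0.048 and 0.0253), Gjc1 at 21 d (0.0113) and Gja1 at 14, 21 and 28 d (0.00787, 0.0244 and 0.00548), and Gja1 was higher at 1 d (0.0488). The 7 mural cell markers stood at 60.9% to 78.2% of 0 d in summed FPKM over the 7 time points. Most of that sum came from a single marker, with 133 of 198 FPKM on average at 0 d. Gjc1 was most like Cald1 (r = 0.867), a gene of contractile cells, Creb3l1 (0.844) and Itga6 (0.834). Gja4 was most like Pip5k1c (0.799), Stxbp6 (0.751) and Myo1e (0.750).

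The other connexins were mostly low. Of 15 further connexin genes listed, 6 passed the filter and 6 had at most 3 fragments in every sample. Gjd4, which encodes Cx39, the connexin of developing and regenerating muscle, reached at most 0.0671 FPKM in any sample. Gjb1, the gene of Cx32 and the connexin of myelinating Schwann cells and liver, was an exception at the start: it held 0.332 to 0.874 FPKM at 0 d, a mean of 5.56 ± 1.15 at 1 d (log2 difference 2.02, SE 0.37, adjusted p = 8.19e-05) and 2.41, 16.4, 14.9 and 2.15 at 3 d (2.21, SE 0.37, adjusted p = 1.29e-05), and a mean of 0.0349 at 28 d. At 3 d its 2 high samples, b and c, were those with the highest sums of most marker lists: macrophage, neutrophil, Schwann cell, fibroblast, mural cell, endothelial and arterial endothelial. Gjb5 was called higher at 3 and 5 d (1.19 ± 0.553 FPKM at 3 d against 0.159 ± 0.0944 at 0 d), and Gjc3, the gene of Cx29 of Schwann cells, lower at 1, 7, 21 and 28 d. The level of Gjc3 was 1.07 ± 0.113 FPKM at 0 d and 0.323 ± 0.214 FPKM at 1 d, and it was 0.947 ± 0.313 FPKM at 3 d. The summed FPKM of 7 Schwann cell markers was 82.6 to 182 at 0 d, 20.3 to 118 at 1 d and 13.3 to 32.8 at 3 d, with 3 of 7 called lower at 1 d, and 4 lower and 1 higher at 3 d. Its part in the values of Gjb1 and Gjc3 was not tested.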

How the data were processed

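RNA of 32 GAS muscle samples was read as 150-bp paired ends. The authors deposited FPKM values, with 1 column per sample, and the submitters' processing notes name CASAVA, HISAT2 2.1.0, DESeq2 and build GRCm38. The counter, its annotation and its strand setting are not given in the sources used here. The columns name the time point, and each group of 4 was treated as replicates tied to no single animal.

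Genes were kept where 4 or more samples reached an FPKM of 0.1. Their log2(FPKM + 1) values entered 1 limma 3.58.1 fit (R 4.3.3, lmFit, eBayes with a variance trend, all 32 samples in 8 groups), with Benjamini-Hochberg adjusted p-values over all 22071 genes. Each time point was compared with 0 d and with the time point before it, and 28 d with 7 d. Identifiers were matched to GENCODE mouse release 21 for 33356 genes, 41 remaining unmatched. The merged exon lengths turned FPKM into fragments, of which 99.3% to 99.4% were whole (within 0.05) among values under 200 per sample. Depth was 14199909 to 17561589 fragments per sample. At this depth 34 to 49 fragments stood behind Trpv2 at 0 d, and a count of 3 fragments or fewer was taken as the floor, which covers counting error only.

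Promoters were RefSeq entries. Likeness between genes was Pearson's r over the 32 samples, among 10583 protein-coding genes outside the lists whose mean FPKM reached 1. Figures were drawn in Python 3.11.15 with numpy 2.4.6, pandas 2.3.3 and matplotlib 3.10.9. The limma fit was also run on simulated counts with planted changes, and no result here rests on that run. The text names all 9 genes, the 3 genes most like each, and, of each list of related genes, at most the 4 called members with the largest differences and any connexin, pannexin or P2X gene near 0, and 1 gene that this rule names is not reported here. The members and lists were chosen with earlier results of these data known, so no list is independent evidence. The alternatives were a pseudocount of 0.1, no filter, a filter at an FPKM of 1, TPM, median-ratio scaling, quantile normalization, fits of only the groups compared, no variance trend, limma-voom on the recovered fragments, an added 1.5-fold threshold and leaving out each sample in turn.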

Additional observations from a re-analysis of the deposited data

Results flagged for a closer look

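Dixon's criterion was applied to the FPKM of the 9 genes in each group of 4 samples, 72 groups in all, and marked 3 of them, where chance alone marks about 1 in 20. In the 0 d group Gja1 was low in replicate 2, at 2.96 FPKM against 3.30 to 3.37 in the other samples. In the 14 d group Gja4 was high in replicate d, at 4.43 FPKM against 3.14 to 3.35. In the 5 d group P2rx7 was high in replicate d, at 3.94 FPKM against 3.17 to 3.27.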

How the results depend on the processing

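No paired analysis was possible because the columns of the table carry letters after transection and numbers at 0 d, and neither is tied to the replicate numbers of the labels. Of the differences of single genes from 0 d, those of Panx1, P2rx4 and P2rx5 from 3 to 28 d and of Trpv2 at 1 and 3 d had an adjusted p under 0.05 under every alternative and with every sample left out in turn; so had P2rx7 at 5 d and the lower value of Gja5 at 21 d. With the added 1.5-fold threshold, P2rx4 and Gja5 at 21 d dropped out. No value with an adjusted p under 0.05 as deposited changed sign. Leaving out 1 sample also gave calls that all 32 samples did not: lower for Gja1 at 7, 14 and 28 d (adjusted p from 0.0343 to 0.0483, without 3 d replicate a or b or 7 d replicate c or d), Gja4 at 3 d (0.0251, without 3 d replicate b) and Gjc1 at 21 d (0.0439, without 3 d replicate a), and higher for P2rx4 at 1 d (0.0472) and P2rx7 at 14 d (0.037), both without 3 d replicate a, for P2rx7 at 28 d (0.0192 to 0.0483, without 3 d replicate a, b or c) and for Trpv2 at 28 d (0.0452, without 1 d replicate b).

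The number of the 9 genes called changed by over 1.5 times as follows. With only the groups compared, it was 5 at 1 d (2 as deposited), 9 at 21 d (5), 7 at 28 d (4), where that fit called 35.4%, 55.3% and 59.1% of all genes, and 0 for 5 against 3 d and for 7 against 5 d (1 each, with 20.7% and 1.22% of all genes). With the 1.5-fold threshold it was 1 at 1 d, 3 at 14 d (5), 2 at 21 d (8.84%, 18.5% and 15.7% of all genes), and 0 for the same pair of steps (5.76% and 0.657%). Median-ratio scaling gave 8 at 5 d (5) and 7 at 28 d (39.4% and 40.4%), 2 for 5 against 3 d and 0 for 7 against 5 d (21.6% and 1.54%). Quantile normalization gave 8 at 5 d, 8 at 7 d (5) and 7 at 28 d (40.3%, 41.4% and 40.7%), 4 for 3 against 1 d (2), 3 for 5 against 3 d, and 2 for 14 against 7 d and for 28 against 7 d (1 each), with 33.3%, 21.3%, 2.59% and 13% of all genes. TPM and no filter gave 0 for 5 against 3 d (19.4% and 14.9%). With 1 sample left out it ran from 1 to 3 at 1 d, 2 to 4 for 3 against 1 d (4 without 3 d replicate b), 0 to 2 for 5 against 3 d, 0 to 1 for 7 against 5 d and 1 to 2 for 28 against 7 d. The higher to lower split moved with median-ratio scaling from 5 and 0 to 4 and 4 at 5 d and from 3 and 1 to 3 and 4 at 28 d. Median-ratio scaling moved the median gene by construction; other causes were not tested.

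Differences that changed sign were small and not called as deposited. After median-ratio scaling they were -0.10 for Gja1 at 3 d, -0.090, -0.042 and -0.23 for Gja5 at 1, 3 and 5 d, and at 1 d -0.13 for Gjc1, -0.10 for P2rx5 and -0.11 for P2rx7. After quantile normalization they were -0.052 for Gja1 at 3 d, -0.053 and -0.21 for Gja5 at 1 and 5 d, and at 1 d -0.10 for Gjc1, -0.092 for P2rx5 and -0.072 for P2rx7. On TPM they were 0.082 for Gja4, 0.015 for Gja5 and 0.084 for Gjc1 at 7 d and 0.018 for Gjc1 at 14 d. With 1 sample left out, Gja1 at 3 d ran from -0.033 to 0.25, Gja4 at 7 d from -0.16 to 0.041, Gja5 at 1 d from -0.032 to 0.089 and at 5 d from -0.036 to 0.029, Gjc1 at 1 d from -0.045 to 0.038 and at 7 d from -0.16 to 0.014, and P2rx7 at 1 d from -0.089 to 0.12.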

Other observations

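Of 7 tested genes for enzymes that break down extracellular nucleotides, 3 were higher and 1 lower at 28 d, beside 37.8% and 9.85% of all genes, and 1 and 1 after median-ratio scaling. Enpp3, a nucleotide pyrophosphatase of the cell surface, had the largest change: it stood at 1.18 ± 0.0698 FPKM at 0 d, 8.13 ± 0.538 at 7 d and 13.7 ± 1.82 at 28 d (log2 difference 2.74, SE 0.11, adjusted p = 7.52e-18), and 2.50 after median-ratio scaling. Alpl, an alkaline phosphatase, fell from 4.84 FPKM at 0 d to 2.12 at 3 d and 1.85 at 28 d (log2 difference -1.04, SE 0.10, adjusted p = 5.46e-10). Entpd2, an ecto-ATPase, was called higher at 5, 14 and 28 d, and after median-ratio scaling at 14 d alone of these.

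Of 7 tested P2Y receptor genes, which are G protein-coupled, 2 were lower at 1 d on both scales, beside 9.01% of all genes on the deposited scale and 18.7% after median-ratio scaling. From 5 to 28 d 3 of 7 were higher and 1 or 2 lower, beside 31.7% to 38% of all genes higher and 9.25% to 10.1% lower. After median-ratio scaling 1 or 2 were higher, beside 18.6% to 20.5%, and 1 or 2 lower, beside 19.7% to 20.7%. P2ry2 fell from 11.5 FPKM at 0 d to 5.48 at 1 d (log2 difference -0.95, SE 0.12) and was called lower at all 7 time points on both scales. P2ry1 was lower at 1 and 3 d (-0.80 and -0.81) and stood at 1.88 FPKM at 28 d against 1.95 at 0 d. P2ry6 and P2ry12, both known from macrophages and microglia, were called higher at 3, 5 and 7 d, though P2ry12 was not at 7 d after median-ratio scaling. The differences of the 4 adenosine receptor genes were at most 0.49 on the log2 scale. Among 8 tested cation channels beside Trpv2, Piezo1, the mechanosensitive channel, was higher at 1 d (0.69, SE 0.15, adjusted p = 0.000627), and Trpm4 was lower at 3 d (-0.55). Of these 8, 0 were higher and 4 lower at 21 d, beside 31.7% and 10.1% of all genes, and 0 and 1 at 28 d, beside 37.8% and 9.85%. After median-ratio scaling 7 were lower at 21 d and 6 at 28 d, beside 19.8% and 19.9% of all genes. Of the 5 genes for partners of junction channels, Nedd4, a ubiquitin ligase that acts on Cx43, was higher from 5 d on (44.7 FPKM at 0 d and 84.7 at 28 d), from 7 d on after median-ratio scaling, and Cav3, caveolin of muscle, was lower at 1, 3, 14, 21 and 28 d.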
